A study of Mus musculus with 9 samples.

Results

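Amino acid breakdown in liver and the urea cycle that disposes of its nitrogen were followed through a list of 58 genes, of which 55 were measured among the 22180 genes on the array that had a value. The list held gene symbols only, and it was drawn up with earlier results of these arrays known. Each gene was represented by the probe set with 1 gene symbol that was selected on the highest mean over all 9 arrays, so these means are a description. They ran from 5.52 for Ass1 to 12.54 for Hpd on the log2 scale, with a median of 9.55. A difference of 1 on this scale is a 2-fold difference. The list's Mut is given under its current symbol Mmut, and Gls2, Sds and Sdsl were not analysed here.

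The arrays hold liver RNA from C57BL/6 mice (the strain entry reads C56BL/6J) that were 5 weeks old when housing began, and all livers were taken after an overnight fast. There were 3 arrays from mice on a regular diet, 3 from mice on a high-fat diet and 3 from mice on a high-fat diet given an extract of ginseng flower buds (GFB), in a daily oral dose of 500 mg/kg over 12 weeks. Mice not given the extract received vehicle, and the treatment time was 12 weeks in all 3 groups. The sex of the mice, the composition of the diets and whether each array is a separate mouse are not given in the sources used here. The p-values therefore reflect only array-to-array spread, which may be technical.

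Amino acids lose their nitrogen first, mostly by transamination to glutamate, and the carbon skeletons then enter the citric acid cycle, ketone bodies or glucose. Liver mitochondria load the released ammonia onto carbamoyl phosphate, and the urea cycle, which runs partly in mitochondria and partly in the cytosol, passes it through citrulline, argininosuccinate and arginine to urea. In fasting these routes supply carbon for glucose, and their enzymes are known to respond to glucagon, glucocorticoids and dietary protein. The liver has little of the aminotransferase that starts breakdown of the branched-chain amino acids, which mostly begins in muscle.

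On the high-fat diet, 4 urea cycle genes and single steps of the tryptophan, tyrosine, histidine and lysine routes were lower than on the regular diet, while no branched-chain gene passed the test. In all, 9 of the 55 members fell and 2 rose at an adjusted p under 0.05 (limma, Benjamini-Hochberg over all genes). Over all genes, 0.518% fell and 0.821% rose, and over the 8219 genes at least as bright as the dimmest member, 1.20% fell and 2.01% rose. The 9 that fell were Got1, Cps1, Asl, Arg1, Slc25a15, Acmsd, Hgd, Hal and Aass, and the 2 that rose were Ido2 and Agxt2. The median difference over the 55 members was 0.01, against 0.00 over all genes. The calls rest on few arrays. Leaving out 1 array at a time gave between 1 and 12 calls among the members, and a fit to only the 6 arrays compared gave 0 members and 15 genes in all. In the full fit the moderated F test over all 3 groups called Slc25a15, Ido2 and Aass, where 0.780% of all genes were called.

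**Figure D1:**
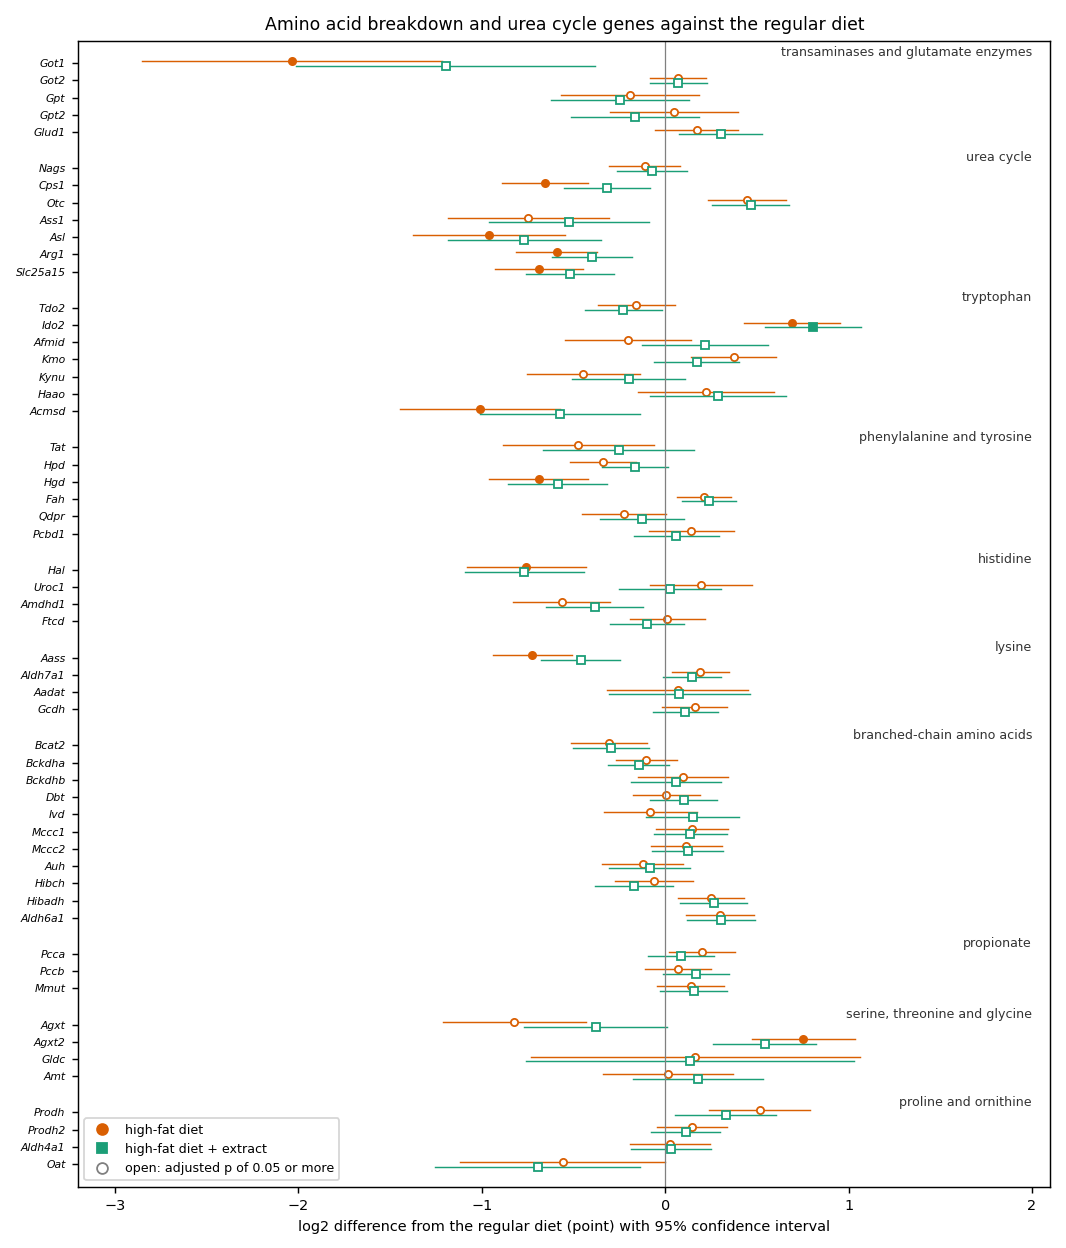
Log2 difference from the regular diet for the 55 members, ordered by branch, with circles for the high-fat diet, squares for the high-fat diet with extract and lines for the 95% confidence interval; filled symbols have an adjusted p under 0.05. The 11 filled circles lie between -2.03 (Got1) and 0.75 (Agxt2), and the 11 branched-chain genes lie between -0.31 and 0.30.

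Promoter windows from RefSeq (build GRCm38.p6, 250 bases before to 50 after an annotated start) were found for 46 members in 52 windows, and not for Cps1, Arg1, Asl, Ido2, Aldh7a1, Mmut, Dbt, Gpt and Kynu. The windows of 6 members are shown, picked from those with a window and with their differences known. Otc, 1 of the 6, passed in no comparison. Got1 had the largest fall, Slc25a15 and Otc are urea cycle genes with differences of opposite sign, Aass kept its call in most left-out fits, and Hal and Agxt2 changed in opposite directions. Searched on both strands were TATAAA, found in 13.6% of all 32851 windows and 8 of 52 member windows, TGACGTCA, the CREB-type palindrome (1.79% and 0 of 52), TTGCGCAA, the C/EBP-type palindrome (0.183% and 0 of 52), and CAAAGTCCA, of HNF4 type (0.475% and 3 of 52). The windows with TATAAA belong to Tdo2, Got2, Pcbd1, Ftcd, Hal, Hgd and Agxt2, and those with CAAAGTCCA to Aadat and Agxt2. The 2 windows of Agxt2 overlap, so each of its matches is counted in both. Capitals mark these matches, and the searched letters did not overlap each other in the windows shown. Each window is printed 5′ to 3′ on the gene's strand.
Got1 (chr19:43524556-43524855, minus strand): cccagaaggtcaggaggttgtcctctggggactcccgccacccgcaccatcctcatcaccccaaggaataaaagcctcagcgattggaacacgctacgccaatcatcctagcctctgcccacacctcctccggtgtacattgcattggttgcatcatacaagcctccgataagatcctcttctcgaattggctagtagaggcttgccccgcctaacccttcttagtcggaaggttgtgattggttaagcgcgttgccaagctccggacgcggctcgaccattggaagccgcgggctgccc
Slc25a15 (chr8:22398572-22398871, minus strand, 1 of 2 windows): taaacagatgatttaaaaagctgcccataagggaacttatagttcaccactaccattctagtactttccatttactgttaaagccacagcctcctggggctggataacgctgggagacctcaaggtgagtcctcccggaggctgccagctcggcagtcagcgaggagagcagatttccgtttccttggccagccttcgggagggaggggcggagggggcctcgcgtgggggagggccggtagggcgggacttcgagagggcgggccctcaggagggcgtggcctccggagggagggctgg
Otc (chrX:10252055-10252354, plus strand): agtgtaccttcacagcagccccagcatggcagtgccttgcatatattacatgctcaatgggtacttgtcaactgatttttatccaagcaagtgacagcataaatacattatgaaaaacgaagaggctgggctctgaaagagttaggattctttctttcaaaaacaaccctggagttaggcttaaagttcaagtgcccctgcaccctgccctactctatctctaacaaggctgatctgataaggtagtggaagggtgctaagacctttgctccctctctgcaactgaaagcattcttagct
Aass (chr6:23132937-23133236, minus strand): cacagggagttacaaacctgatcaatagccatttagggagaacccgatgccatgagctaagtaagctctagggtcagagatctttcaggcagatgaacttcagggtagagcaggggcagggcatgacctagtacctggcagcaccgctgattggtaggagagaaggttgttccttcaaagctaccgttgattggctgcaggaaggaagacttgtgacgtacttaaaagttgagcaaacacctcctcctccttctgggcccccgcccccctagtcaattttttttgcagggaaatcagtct
Hal (chr10:93488518-93488817, plus strand): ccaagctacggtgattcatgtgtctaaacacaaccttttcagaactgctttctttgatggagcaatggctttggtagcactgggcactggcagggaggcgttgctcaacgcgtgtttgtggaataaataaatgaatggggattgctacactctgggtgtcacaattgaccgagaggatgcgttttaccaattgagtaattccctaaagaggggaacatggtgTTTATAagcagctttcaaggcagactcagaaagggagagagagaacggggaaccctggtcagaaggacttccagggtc
Agxt2 (chr15:10358283-10358582, plus strand, 1 of 2 windows): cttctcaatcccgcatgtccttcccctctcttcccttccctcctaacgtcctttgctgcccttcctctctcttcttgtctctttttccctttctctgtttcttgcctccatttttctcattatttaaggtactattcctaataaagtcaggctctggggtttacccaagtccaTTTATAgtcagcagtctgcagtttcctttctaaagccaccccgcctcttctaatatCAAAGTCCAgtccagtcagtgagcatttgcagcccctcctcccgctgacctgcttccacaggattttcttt

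Counted from the annotated start, the Hal match lies at position -28 and reads TATAAA on the opposite strand. In Agxt2 a match of the same kind lies at -77 and the HNF4-type letters at -21. The windows shown hold 18 CpG dinucleotides for Got1, 15 for Slc25a15, 7 for Hal, 5 for Aass, 4 for Agxt2 and 1 for Otc, and the other Slc25a15 window holds 51, against a median of 7 over all windows and 10.5 over member windows. A match is a description of letters, and its use by a factor was not tested.

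The urea cycle was the branch with the most calls, with 4 of its 7 genes called lower on the high-fat diet and a median difference of -0.66. Of the 9 fits that left out 1 array, Cps1 and Slc25a15 passed in 4, Arg1 in 3 and Asl in 1. Cps1, which encodes carbamoyl phosphate synthetase of the mitochondrial entry step, stood at 12.30, 12.49 and 12.71 on the regular diet, 11.79, 11.82 and 11.93 on the high-fat diet and 12.26, 12.17 and 12.13 with extract. The high-fat diet arrays were all the lowest, and the extract arrays lay between the 2 other groups without overlap. Cps1 fell by 0.66 on the log2 scale (SE 0.10, adjusted p = 0.0224). Slc25a15, the carrier that exchanges ornithine and citrulline across the inner mitochondrial membrane, stood at 10.22, 10.29 and 10.53 on the regular diet, 9.60, 9.59 and 9.78 on the high-fat diet and 9.94, 9.69 and 9.85 with extract. All 6 arrays on the high-fat diet lay below the regular-diet arrays, and the difference between the diets was -0.69 (SE 0.11, adjusted p = 0.02).

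Asl encodes argininosuccinate lyase, which releases arginine and fumarate in the cytosol. Its values were 10.60, 11.10 and 11.13 on the regular diet, 9.60, 10.22 and 10.13 on the high-fat diet and 10.25, 10.24 and 10.04 with extract. The regular-diet arrays lay above all others, and Asl fell 1.95-fold (-0.96, SE 0.18, adjusted p = 0.043) on the high-fat diet. Arg1, the liver arginase gene of the last step, stood at 11.40, 11.45 and 11.55 on the regular diet, 10.68, 10.99 and 10.95 on the high-fat diet and 11.12, 11.12 and 10.97 with extract. Again no array on the high-fat diet reached the regular-diet range, and Arg1 fell 1.51-fold (-0.59, SE 0.10, adjusted p = 0.0255).

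Otc, which encodes ornithine transcarbamylase and joins carbamoyl phosphate to ornithine, went the other way in every array. It stood at 10.76, 10.49 and 10.72 on the regular diet, 11.07, 11.12 and 11.11 on the high-fat diet and 11.15, 11.23 and 10.98 with extract. The groups on the high-fat diet did not overlap the regular diet, but the difference of 0.45 (SE 0.09) missed the threshold with an adjusted p of 0.0576. Ass1, the argininosuccinate synthetase gene, had values of 5.57, 6.19 and 6.06 on the regular diet, 5.05, 5.03 and 5.51 on the high-fat diet and 5.24, 5.32 and 5.69 with extract. Its difference of -0.75 (SE 0.19, adjusted p = 0.119) did not pass, and it passed without regular-diet replicate 1. Its probe set was the dimmest of the members, above but near the median gene mean of 4.74, and how well that probe set reads the transcript was not tested. Nags, whose product makes the activator of carbamoyl phosphate synthetase, differed by -0.11 (95% confidence interval -0.30 to 0.08, adjusted p = 0.632). Its second, dimmer probe set was higher on the high-fat diet, at 6.33 to 6.51 against 6.19 to 6.29, so the 2 probe sets of Nags disagreed in sign.

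**Figure D2:**
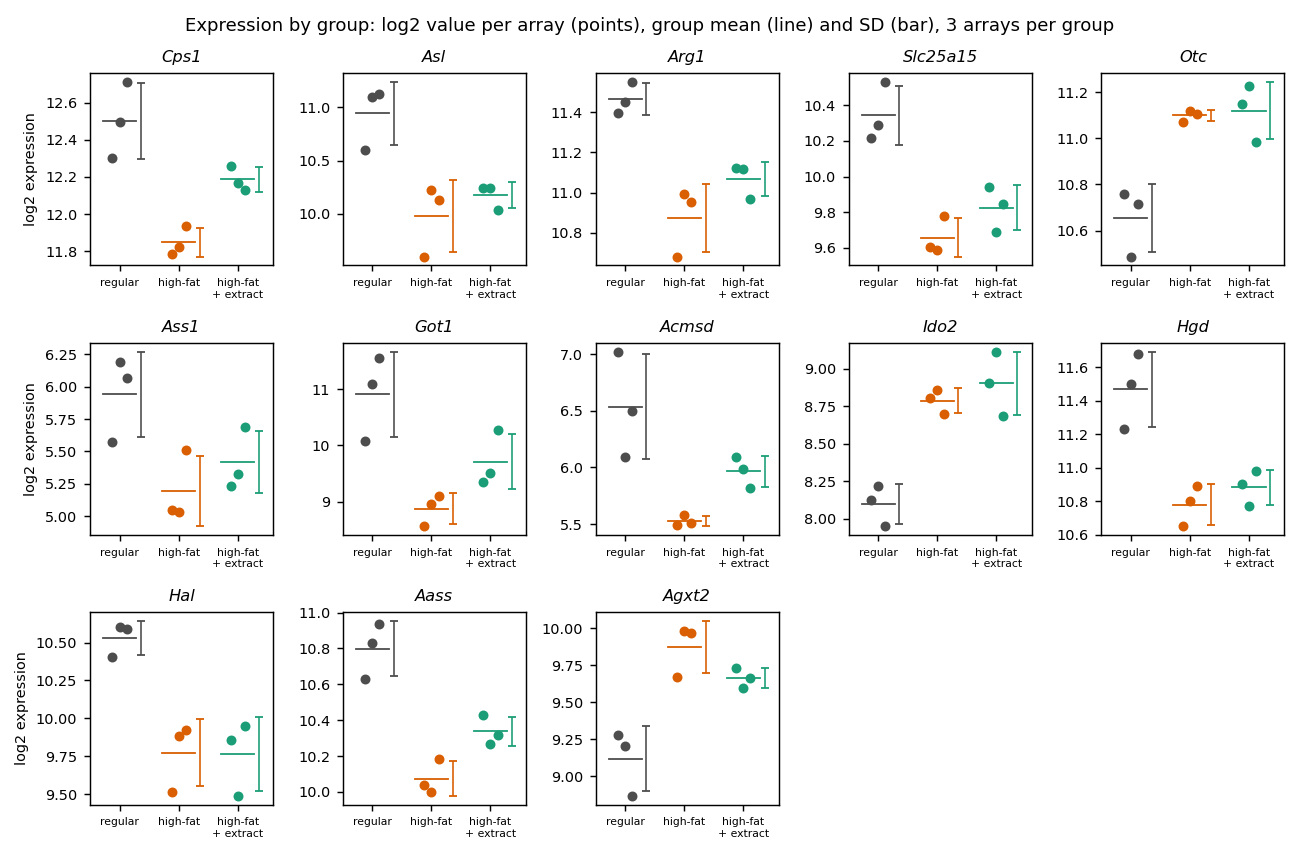
Log2 expression (vertical axis) of 13 members in the 3 groups, with 1 point per array, a line at the mean and a bar for the SD of 3 arrays; each panel has its own axis, which does not start at 0. The 11 members that changed on the high-fat diet are shown with Otc and Ass1, and in each panel the 3 regular-diet arrays do not overlap the 3 high-fat diet arrays.

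Among the aminotransferases, Got1 changed and its mitochondrial counterpart did not pass. Got1 encodes the cytosolic aspartate aminotransferase, which can make or use aspartate, the second nitrogen donor of the urea cycle. It stood at 10.07, 11.09 and 11.56 on the regular diet, 8.56, 8.96 and 9.10 on the high-fat diet and 9.36, 9.51 and 10.27 with extract. Got1 had the widest spread on the regular diet of the genes that fell, and the groups of the diets did not overlap. It fell 4.09-fold on the high-fat diet (-2.03, SE 0.36, adjusted p = 0.034) and passed in 2 of 9 fits that left out an array. Got2, the mitochondrial aspartate aminotransferase gene, lay between 11.33 and 11.51 in all 9 arrays, with a difference of 0.07 and a 95% confidence interval from -0.08 to 0.22. For the alanine aminotransferases Gpt and Gpt2, the cytosolic and mitochondrial forms, the differences were -0.19 (interval -0.57 to 0.19) and 0.05 (interval -0.30 to 0.40). Glud1, the glutamate dehydrogenase gene that frees ammonia from glutamate, stood at 11.16, 10.88 and 10.90 on the regular diet, 11.04, 11.22 and 11.20 on the high-fat diet and 11.41, 11.26 and 11.19 with extract. The diets overlapped for Glud1 and it did not pass in any comparison (adjusted p = 0.521, 0.876 and 0.267 for diet, extract on the diet, and extract against the regular diet).

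The tryptophan route held a rise at one of its possible entries and a fall at a branch point further on. Ido2 encodes an indoleamine dioxygenase that can open the tryptophan ring. Its arrays stood at 8.13, 8.22 and 7.95 on the regular diet, 8.81, 8.86 and 8.70 on the high-fat diet and 8.91, 9.11 and 8.69 with extract. Both groups on the high-fat diet lay above the regular diet, and Ido2 rose on it (0.69, SE 0.12, adjusted p = 0.0284). Tdo2, the main tryptophan dioxygenase gene of liver, differed by -0.16 (interval -0.37 to 0.05, adjusted p = 0.526). Acmsd encodes the decarboxylase that steers kynurenine carbon away from NAD synthesis. It had values of 7.02, 6.09 and 6.50 on the regular diet, 5.49, 5.58 and 5.51 on the high-fat diet and 6.09, 5.98 and 5.82 with extract, and it fell 2.01-fold on the high-fat diet (-1.01, SE 0.19, adjusted p = 0.043). The high-fat diet arrays of Acmsd lay close together and below every other array. The remaining genes, Afmid, Kmo, Kynu and Haao, had differences from -0.45 (Kynu, adjusted p = 0.181) to 0.37 (Kmo, adjusted p = 0.137) and did not pass.

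Single steps also changed in the tyrosine, histidine and lysine routes. Hgd encodes homogentisate dioxygenase, the ring-opening enzyme of tyrosine breakdown. It stood at 11.23, 11.50 and 11.68 on the regular diet, 10.65, 10.80 and 10.89 on the high-fat diet and 10.90, 10.77 and 10.98 with extract, and it fell by 0.69 on the log2 scale (SE 0.12, adjusted p = 0.031). The regular-diet arrays of Hgd lay above all 6 others. Hpd, the gene of the enzyme just before it, had values of 12.62, 12.74 and 12.77, then 12.26, 12.44 and 12.41, then 12.61, 12.53 and 12.49 in the same order of groups. The 2 diets did not overlap for Hpd, yet its difference of -0.34 missed the threshold (adjusted p = 0.0806). Fah, which encodes the last enzyme of the route, was 0.21 higher (adjusted p = 0.182), and Tat, the tyrosine aminotransferase gene, was 0.47 lower (interval -0.88 to -0.06, adjusted p = 0.302). Pcbd1 and Qdpr, which recycle the cofactor of phenylalanine hydroxylation, differed by 0.14 and -0.22 and did not pass.

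In histidine breakdown, Hal encodes the first enzyme, histidine ammonia-lyase. Its arrays stood at 10.40, 10.60 and 10.59 on the regular diet, 9.52, 9.88 and 9.92 on the high-fat diet and 9.85, 9.49 and 9.95 with extract. Hal fell 1.69-fold on the high-fat diet (-0.76, SE 0.14, adjusted p = 0.0414), and the extract arrays covered nearly the same range as those of the diet alone. Amdhd1, the gene of the third step, stood at 9.53, 9.60 and 9.86, then 8.93, 9.18 and 9.18, then 9.44, 9.22 and 9.17, with no overlap between the diets. Its difference of -0.56 narrowly missed the threshold (adjusted p = 0.0561). Uroc1 and Ftcd, the genes of the second and last steps, differed by 0.19 and 0.01 and overlapped between the diets. Lysine breakdown starts with Aass, the aminoadipate semialdehyde synthase gene, which stood at 10.63, 10.83 and 10.93 on the regular diet, 10.04, 10.002 and 10.18 on the high-fat diet and 10.43, 10.27 and 10.32 with extract. The 3 groups did not overlap for Aass. It had the smallest adjusted p of the members (-0.72, SE 0.10, adjusted p = 0.0132) and passed in 8 of 9 fits that left out an array. The other called members passed in 1 to 4 of these 9 fits, with Asl and Hgd at 1 and Cps1 and Slc25a15 at 4. The next enzymes of the lysine route did not pass. Aldh7a1 stood at 10.32, 10.28 and 10.14 on the regular diet, 10.43, 10.48 and 10.42 on the high-fat diet and 10.38, 10.39 and 10.41 with extract. It was 0.19 higher on the high-fat diet (adjusted p = 0.263), and Aadat and Gcdh differed by 0.07 and 0.16.

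None of the 11 branched-chain genes passed, and their median difference was 0.01. The route runs from the aminotransferase Bcat2 through the branched-chain ketoacid dehydrogenase, whose subunits Bckdha, Bckdhb and Dbt were measured, to separate enzymes for leucine (Ivd, Mccc1, Mccc2 and Auh) and valine (Hibch, Hibadh and Aldh6a1). The 95% confidence intervals of all 11 differences on the high-fat diet lay between -0.51 (Bcat2) and 0.48 (Aldh6a1), so a change as large as that of Got1 or Asl was outside each of them. Bcat2 stood at 6.22, 6.30 and 6.49 on the regular diet, 6.09, 6.09 and 5.91 on the high-fat diet and 6.09, 5.96 and 6.08 with extract. Aldh6a1, the methylmalonate semialdehyde dehydrogenase gene, stood at 10.77, 10.61 and 10.81, then 10.93, 11.09 and 11.07, then 11.08, 11.07 and 10.96. In neither gene did the diets overlap, with Bcat2 lower (-0.31, adjusted p = 0.17) and Aldh6a1 higher (0.30, adjusted p = 0.139). The ketoacid dehydrogenase subunits differed by -0.10, 0.10 and 0.01. Outside the list, Bckdk and Ppm1k, the kinase and phosphatase that switch that enzyme off and on, differed by -0.01 (adjusted p = 0.96) and -0.42 (adjusted p = 0.191).

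Propionate from valine, isoleucine, methionine and threonine is carboxylated by the product of Pcca and Pccb and then isomerised by the mutase of Mmut. Pcca stood at 9.0, 8.96 and 9.02 on the regular diet, 9.07, 9.33 and 9.19 on the high-fat diet and 9.12, 9.07 and 9.04 with extract. Mmut stood at 9.16, 9.28 and 9.30, then 9.25, 9.44 and 9.48, then 9.40, 9.38 and 9.43. All 3 propionate genes were slightly higher on the high-fat diet, by 0.07 to 0.20, and none passed (adjusted p from 0.311 to 0.777).

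In the serine, threonine and glycine group, the aminotransferases that use glyoxylate stood in opposite directions. Agxt2, a mitochondrial enzyme of glyoxylate and beta-amino acid metabolism, had values of 9.28, 9.21 and 8.87 on the regular diet, 9.67, 9.98 and 9.97 on the high-fat diet and 9.73, 9.59 and 9.66 with extract. All 6 arrays on the high-fat diet lay above the regular diet, and Agxt2 rose 1.69-fold on the diet alone (0.75, SE 0.12, adjusted p = 0.0255). Agxt, which encodes the alanine-glyoxylate aminotransferase, stood at 10.07, 9.47 and 9.59 on the regular diet, 8.81, 8.73 and 9.12 on the high-fat diet and 9.57, 9.20 and 9.23 with extract. The diets did not overlap for Agxt, and its difference of -0.82 (SE 0.17) missed the threshold (adjusted p = 0.0576). Gldc and Amt of the glycine cleavage system differed by 0.17 and 0.02. Gldc was too variable to bound, since its interval ran from -0.73 to 1.06 and its regular-diet arrays from 7.59 to 9.21.

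For proline and ornithine, Prodh, the proline dehydrogenase gene, stood at 8.43, 8.79 and 8.50 on the regular diet, 8.86, 9.25 and 9.16 on the high-fat diet and 8.96, 8.86 and 8.89 with extract. It was higher by 0.52 without overlap between the diets but did not pass (adjusted p = 0.0873). Oat, the ornithine aminotransferase gene, stood at 11.55, 11.92 and 11.79, then 11.06, 11.33 and 11.19, then 11.29, 10.38 and 11.50. Extract replicate 2 was low for Oat, and the gene did not pass in any comparison (adjusted p = 0.376, 0.954 and 0.308). Prodh2 and Aldh4a1 differed by 0.15 and 0.03.

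**Figure D3:**
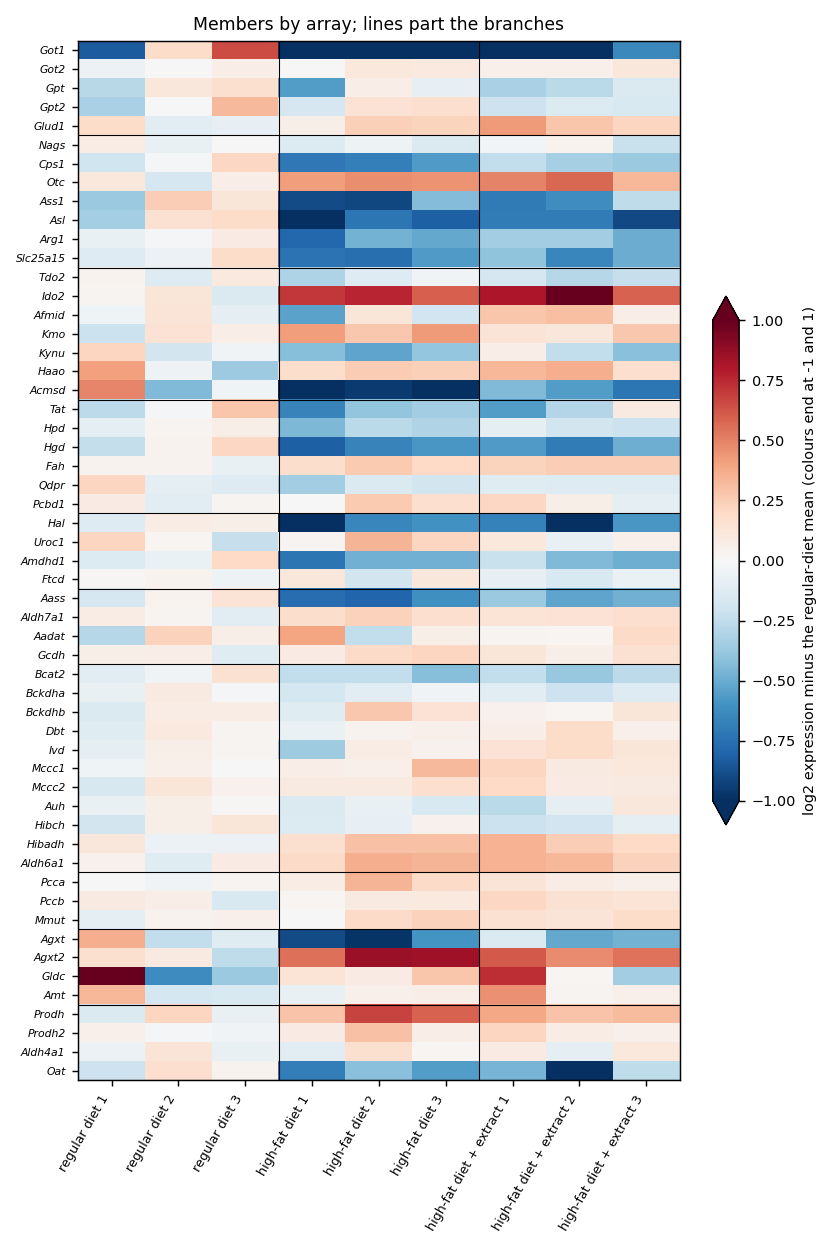
Each row is a member, each column an array, and colour is the log2 expression minus the regular-diet mean, with colours ending at -1 and 1; black lines part the groups and the branches. Got1, Cps1, Asl, Arg1, Slc25a15, Acmsd, Hgd, Hal and Aass are blue in the high-fat diet columns, and Ido2 and Agxt2 are red. The branched-chain rows are mostly paler, with mean differences on that diet from -0.31 to 0.30.

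The compartment of the product was not used to choose the genes. Of the 21 measured members whose products act in the cytosol, 6 fell, 1 rose and 15 were lower on the high-fat diet, with a median difference of -0.34. Of the 32 with mitochondrial products, 3 fell, 1 rose and 22 had higher means, with a median of 0.07. Over all 22180 genes tested, 0.518% fell, 0.821% rose, 11063 were lower and 11106 higher, with a median of 0.00. Over genes at least as bright as the dimmest member, 1.20% fell, 2.01% rose and 4274 of 8219 were lower. The mitochondrial members that fell were Cps1, Slc25a15 and Aass. These counts describe the lists, and the difference between the compartments was not tested. With extract, the medians against the regular diet were -0.23 for the cytosol and 0.11 for the mitochondrion.

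**Figure D4:**
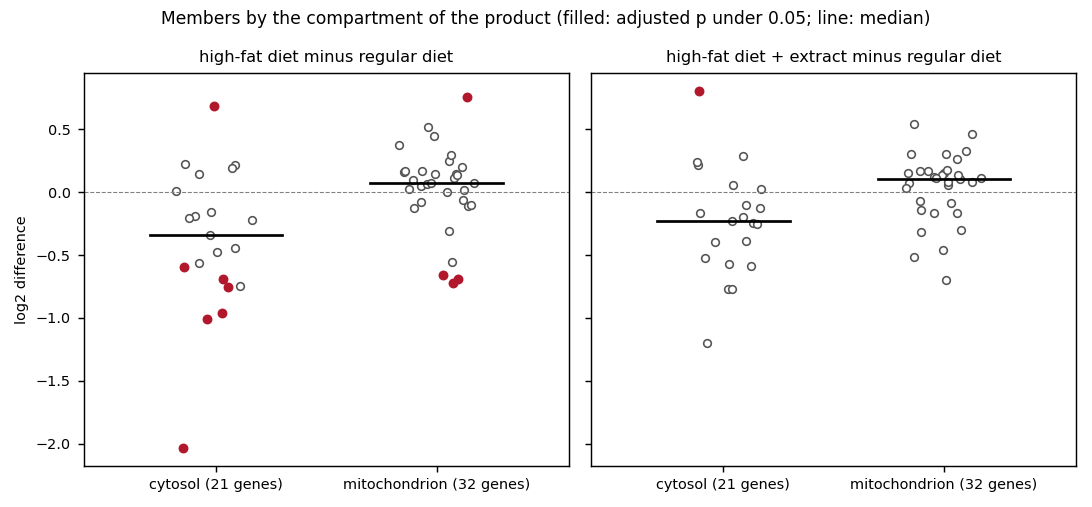
Log2 difference from the regular diet (vertical axis) for 21 members with cytosolic and 32 with mitochondrial products, on the high-fat diet (left) and with extract (right); each point is a gene, filled where the adjusted p is under 0.05, and the line is the median. The cytosolic median lies at -0.34 on the high-fat diet and -0.23 with extract, below the mitochondrial medians of 0.07 and 0.11.

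Separation of the arrays was also counted without the model. The 3 high-fat diet arrays were entirely below the regular diet for 18 of 55 members and entirely above it for 13. Over all genes these shares were 7.86% and 7.93%, and over genes at least as bright as the dimmest member 14.1% and 13.7%. The replicates of a diet also differed among themselves. Regular-diet replicate 1 was the lowest of its group for 8 of the 9 members that fell, and high-fat diet replicate 1 the lowest of its group for 7 of 9. Without regular-diet replicate 1, 12 members were called, and without regular-diet replicate 2 only Acmsd and without regular-diet replicate 3 only Aass.

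The extract was set against the high-fat diet alone to see whether it altered these genes on that diet. No member passed, where 0.00451% of all genes did, and at an unadjusted p under 0.05 there were 5 members against 5.98% of all genes. The count of members was also 0 under every alternative fit that was run. The extract arrays were entirely above the high-fat diet for 9 members and entirely below it for 2, against 4.42% and 5.27% of all genes, and 6.24% and 8.12% of the genes at least as bright as the dimmest member. The 9 were Got1, Cps1, Acmsd, Hpd, Qdpr, Aass, Ivd, Pccb and Agxt, and the 2 were Kmo and Aldh7a1. Got1 had the widest difference, 0.84 with an interval from 0.02 to 1.65 and an adjusted p of 0.829, and Cps1 the smallest adjusted p (0.34, interval 0.10 to 0.57, adjusted p = 0.718). Hal differed by -0.01 (interval -0.33 to 0.32) and Otc by 0.02 (interval -0.19 to 0.23). These intervals are not adjusted for the number of genes, and a missed threshold does not show that the groups are alike.

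Against the regular diet, the livers given extract on the high-fat diet had 1 member called. Ido2 rose 1.75-fold (0.80, SE 0.12, adjusted p = 0.0274), where 0.261% of all genes rose and 0.180% fell. Next came Hal (-0.77, adjusted p = 0.0696), Otc (0.47, adjusted p = 0.0868), Hgd (-0.59, adjusted p = 0.089), Slc25a15 (-0.52, adjusted p = 0.0893) and Aass (-0.46, adjusted p = 0.0936), none of which passed. These comparisons share arrays, so their values are given side by side and not as separate evidence. For Cps1 the differences from the regular diet were -0.66 on the high-fat diet and -0.32 with extract. In the same order they were -2.03 and -1.20 for Got1, -1.01 and -0.57 for Acmsd and -0.96 and -0.77 for Asl. For Arg1 they were -0.59 and -0.40, for Agxt2 0.75 and 0.54 and for Hgd -0.69 and -0.59. Slc25a15 had -0.69 and -0.52, and Aass -0.72 and -0.46. Hal (-0.76 and -0.77) and Ido2 (0.69 and 0.80) were no closer to the regular diet with extract. The test of extract against the high-fat diet, given above, is the test of the gap within each pair, and it was not passed.

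Genes that neighbour these routes were taken from 7 further lists. On the high-fat diet 0.821% of all genes rose and 0.518% fell. Of 30 measured other breakdown enzymes, 1 rose and none fell on that diet. It was Shmt2, the mitochondrial serine hydroxymethyltransferase gene (0.36, SE 0.07, adjusted p = 0.0399), which was also higher with extract against the regular diet (0.40, adjusted p = 0.0484). Pipox, of the pipecolate route, and Mmab, which makes the cobalamin cofactor of the Mmut product, were 0.48 and 0.68 higher and did not pass (adjusted p = 0.0539 and 0.0596). The widest difference of that list was in the other direction, in Etnppl, the ethanolamine-phosphate phospho-lyase gene, at -1.67 without overlap (adjusted p = 0.082) and at -1.85 with extract against the regular diet (adjusted p = 0.101). Of the 30, 18 were higher and 12 lower. Of 20 amino acid transporters none passed, and 10 were higher and 10 lower, with a median of 0.00. The 3 with the smallest F-test p were Slc7a2, a carrier of arginine and lysine, at -1.15 (adjusted p = 0.0567), Slc25a22, a mitochondrial glutamate carrier, at -0.78 (adjusted p = 0.0895) and Slc16a10, a carrier of aromatic amino acids, at -0.46 (adjusted p = 0.0753). No gene passed among 7 synthesis enzymes or among 15 measured regulators, of which 8 were higher and 7 lower. They include the glucocorticoid receptor gene Nr3c1 (0.18, adjusted p = 0.317), Ppargc1a (-1.04, adjusted p = 0.17) and Klf15 (-0.54, adjusted p = 0.148).

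Ammonia that escapes the urea cycle is taken up around the central vein of the liver lobule and fixed into glutamine. On the high-fat diet 11106 of all 22180 genes had higher means and 0.821% rose. Of 10 pericentral markers outside the list, 9 had higher means on that diet, of which 2 rose. Rhbg, an ammonia transporter gene of those cells, stood at 6.04, 6.57 and 5.86 on the regular diet, 7.32, 7.42 and 7.71 on the high-fat diet and 6.46, 6.62 and 7.05 with extract. The high-fat diet arrays were the highest, and Rhbg rose 2.51-fold (1.33, SE 0.21, adjusted p = 0.0203), while the difference of extract from the diet alone, -0.77, did not pass (adjusted p = 0.609). Gulo, a gene of vitamin C synthesis, rose by 0.84 (adjusted p = 0.0336), and it also rose with extract against the regular diet (0.89, adjusted p = 0.0465). Cyp1a2, a cytochrome P450 gene, was 0.48 higher on the diet (adjusted p = 0.299) and 0.49 higher again with extract (adjusted p = 0.792), each without overlap. With extract, 7 of the 10 were higher and 3 lower than on the diet alone, none passing. All 10 were higher than on the regular diet, of which 1 passed. Over all 22180 genes, 10959 were higher with extract than on the diet alone. Against the regular diet, 11159 were higher and 0.261% rose. Glul, the glutamine synthetase gene, stood at 10.97 to 11.11, 11.29 to 11.42 and 10.99 to 11.17 in the 3 groups, and its difference of 0.32 on the high-fat diet did not pass (adjusted p = 0.0885). Of 7 periportal markers outside the list, none passed on the high-fat diet. Of these, 3 were higher and 4 lower, with a median of -0.01. Cyp2f2 was 0.37 higher without overlap between the diets (adjusted p = 0.181) and Aldh1b1 0.32 higher (adjusted p = 0.426), while Pck1 stood at -0.89 (adjusted p = 0.151). Apoa4, an apolipoprotein gene on that list, fell with extract against the regular diet (-1.67, adjusted p = 0.00783).

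**Figure D5:**
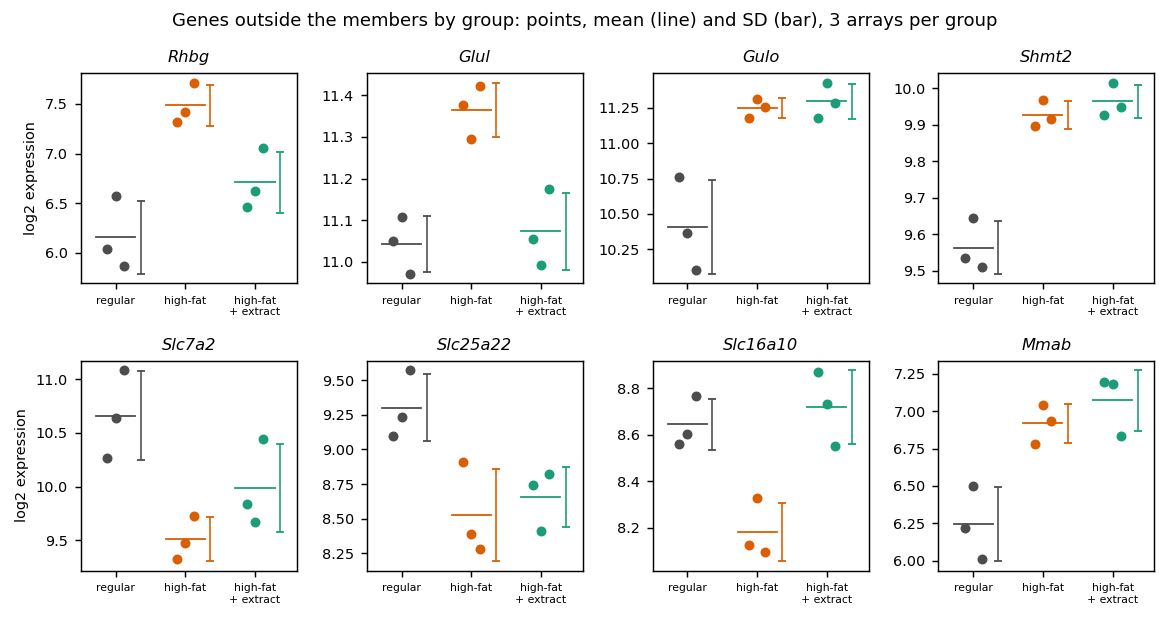
Log2 expression (vertical axis, own scale per panel, not starting at 0) of 8 genes outside the list in the 3 groups, with 1 point per array, a line at the mean and a bar for the SD of 3 arrays. Rhbg, Gulo and Shmt2 rose on the high-fat diet, where Rhbg lies at 7.32 to 7.71 against 5.86 to 6.57 on the regular diet.

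The RNA is from whole liver pieces, in which fewer cells of a type and less RNA per cell cannot be told apart. Hepatocyte markers were bright, with Alb at 13.48 to 13.57, and the mean level of the 8 measured markers was 11.63 to 11.71 on the regular diet, 11.55 to 11.66 on the high-fat diet and 11.73 to 11.76 with extract, with no member of that list called on the high-fat diet. Of 9 stellate cell and fibroblast markers, the collagen genes Col1a1 and Col3a1 rose on that diet (adjusted p = 0.0152 and 0.0115), and 7 did not pass. Over all genes, 0.821% rose. In all, 6 of the 9 were higher and 3 lower, namely Dcn (-0.38, adjusted p = 0.149, no overlap), Lrat (-0.15, adjusted p = 0.675) and Reln (-0.14, adjusted p = 0.605). The list's mean level was 6.49 to 6.63 on the regular diet, 6.77 to 6.89 on the high-fat diet and 6.61 to 6.69 with extract, and it includes both collagens. The part of these markers in the members' differences was not tested. No marker of macrophages, endothelium, bile duct, lymphocytes, neutrophils, adipose tissue, pancreas or kidney passed on the high-fat diet, and all 4 neutrophil markers and 5 of 6 lymphocyte markers lay below 4.74, the median over gene means, on all 9 arrays. Array medians ran from 4.34 to 4.38, and arrays of a group correlated, across genes, at 0.991 to 0.994.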

How the data were processed

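Liver RNA of 9 samples was hybridised to whole-transcript arrays. The deposited values are log2 expression per probe set, which the authors made by RMA in oligo, an R package, per the submitters' processing notes; versions, genome build and scan batches are not given in the sources used here. RMA takes out array-wide shifts and leaves dim probe sets near background. Of 41345 probe sets, 23521 had 1 gene symbol, 1814 several and 16010 none; the brightest of the first kind stood for each of 22180 genes. The fit was limma 3.58.1 (R 4.3.3) with a mean per group over all 9 arrays (6 residual and 3.28 prior degrees of freedom), two-sided, with Benjamini-Hochberg adjustment over all genes. A single-gene exact permutation test of 3 against 3 cannot go below p = 0.1 and was not used. Confidence intervals are at 95%. The procedure was tested on simulated data. Members, branches and lists were chosen with earlier results of these data known. Values per array are given for called members, for the 2 of each branch with the smallest F-test p, and also for Otc, Ass1 and Rhbg. Elsewhere called genes and up to 3 per list were named, with partners of named members. A few further markers, listed genes and members were named after their values were seen. Alternatives were another moderation, a brightness filter, probe set means, renormalization, array weights, other thresholds, a replicate block, a fit of 6 arrays alone, and fits lacking 1 array.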

Additional observations from a re-analysis of the deposited data

How the results depend on the processing

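The 11 members called on the high-fat diet numbered between 11 and 16 with other moderation, brightness, probe set, normalization, array weight and threshold settings. The count was 0 in the fit of only the 6 arrays compared. That fit has fewer residual degrees of freedom and takes its spread from those 6 arrays alone. Why the calls were lost in it was not tested. Leaving out an array gave 1 to 12. Counts by array left out were 12, 1 and 1 for regular-diet replicates 1, 2 and 3, 2, 2 and 1 for high-fat diet replicates 1, 2 and 3, and 3, 5 and 7 for extract replicates 1, 2 and 3. No difference of a called member changed sign in any setting run. Against the high-fat diet alone, extract gave 0 members in every setting. Against the regular diet, the 1 call with extract became 2 with a variance trend and robust fitting, 6 among genes above the median brightness, 6 at an adjusted p under 0.10 and 0 with only the 6 arrays compared, and 0 to 4 when an array was left out. The F test's 3 calls became 9 with a variance trend, 12 among brighter genes, 5 with quantile normalization once more, 6 with arrays shifted to the same median and 6 with array weights, and 0 to 7 when an array was left out; it was not run with only 6 arrays or with other thresholds. The numbers in the sample titles were not treated as pairs in the main fit. Deviations of same-numbered arrays correlated at -0.05 to 0.17, and those of differently numbered arrays at -0.13 to 0.13. These ranges overlap, so they cannot decide whether the arrays were paired. With the replicate block, 8 members were called on the high-fat diet, without Acmsd, Hal and Agxt2, 0 and 1 in the comparisons with extract, and 2 by the F test. Over all genes the block moved the 297 calls on the high-fat diet to 201, and only the 6 arrays compared gave 15. The number of arrays limits the precision throughout.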
